A study of Mus musculus with 12 samples.

Results

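The tricarboxylic acid cycle is the mitochondrial ring of reactions that oxidises acetyl-CoA to carbon dioxide and hands the electrons to the respiratory chain. The 9 genes described here encode enzymes or enzyme subunits of 7 of its steps: Cs (citrate synthase), Idh3a and Idh3g (subunits of the NAD-dependent isocitrate dehydrogenase), Ogdh (the E1 subunit of the 2-oxoglutarate dehydrogenase complex), Suclg1 (the alpha subunit of succinyl-CoA ligase), Sdha and Sdhb (subunits of succinate dehydrogenase), Fh1 (fumarase) and Mdh2 (mitochondrial malate dehydrogenase). They were found by gene symbol among the 33200 gene identifiers of the table. The set was chosen with earlier results of these data known. All 9 were present and passed the filter on low counts that left 16656 genes for testing. The tissue was the inguinal white fat pad (iWAT), which lies under the skin, taken at 16 weeks of age from mice on a standard diet. The 3 wild-type libraries came from C57BL/6 mice. The 3 KO libraries came from mice with a whole-body Nrep-/- deletion made by CRISPR/Cas editing; the sources used here do not give how many edited founders the line goes back to. The labels call the libraries biological replicates. Another 6 samples, from liver, are not analysed here.

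In white fat the cycle has a further role beside energy supply. Citrate made in the mitochondrion can leave through a carrier and be split in the cytosol into acetyl-CoA, the building block of fatty acids. The cycle is then refilled with oxaloacetate made from pyruvate. Succinate dehydrogenase belongs to both systems, because it is also complex II of the respiratory chain. The comparison asks how the transcripts of these enzymes differ with genotype within iWAT.

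Counts of Nrep, the targeted gene, were 1404, 1640 and 1300 in the wild-type libraries. They were 2, 2 and 5 in the KO libraries, which gave a log2 fold change of -8.72 (SE 0.268, edgeR adjusted p = 1.82e-05). Library totals lay between 17970451 and 20369345 estimated counts. Adipocyte markers were all detected in every library, with Fabp4, Cfd and Lpl the most abundant. The 15 skeletal muscle markers summed to 30.5, 22.7 and 26.4 CPM in wild type and to 4632, 784 and 4330 CPM in KO replicates 1, 2 and 3 (CPM, counts scaled to a common library size, here after TMM normalisation). Myh4, Acta1 and Ckm led them in KO, where 1 marker, Myh7, was at 0 in replicate 2. In wild type Ckm, Pvalb and Tcap were at 0 in replicate 2 and Myh4 in replicate 3. The KO iWAT libraries therefore hold muscle transcripts that wild-type libraries nearly lack, and KO replicate 2 holds the fewest of the KO libraries.

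With TMM scaling, all 9 enzymes had higher CPM in every KO library than in any wild-type library. The differences in the fit ran from 1.34-fold (Fh1) to 2.17-fold (Idh3a). Scaling to adipocyte markers, under which 6.53% of all genes had a positive log2 fold change, gave 7 of the 9 a negative one. At an adjusted p of 0.05 with TMM scaling, edgeR's quasi-likelihood test over all genes called 0 of the 9. It called 144 genes higher, 0.865% of those tested, and 27 lower. Library totals alone gave 129 and 49, and scaling to adipocyte markers gave 84 and 412. All 9 had an unadjusted p under 0.05, as did 3760 of all 16656 genes (22.6%). At an adjusted p of 0.10, 8 of the 9 were higher, against 5.52% of all genes, and Fh1 was not. DESeq2 on the same libraries called the same 8 at an adjusted p of 0.05, against 7.34% of all genes called higher. Across all genes, 15.2% had every KO library above every wild-type library and 13.1% had every KO library below. The median log2 fold change was 0.61 over the 9 enzymes and -0.06 over all genes tested. In these bulk samples, fewer cells of a type and less RNA per cell cannot be told apart.

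**Figure D1:**
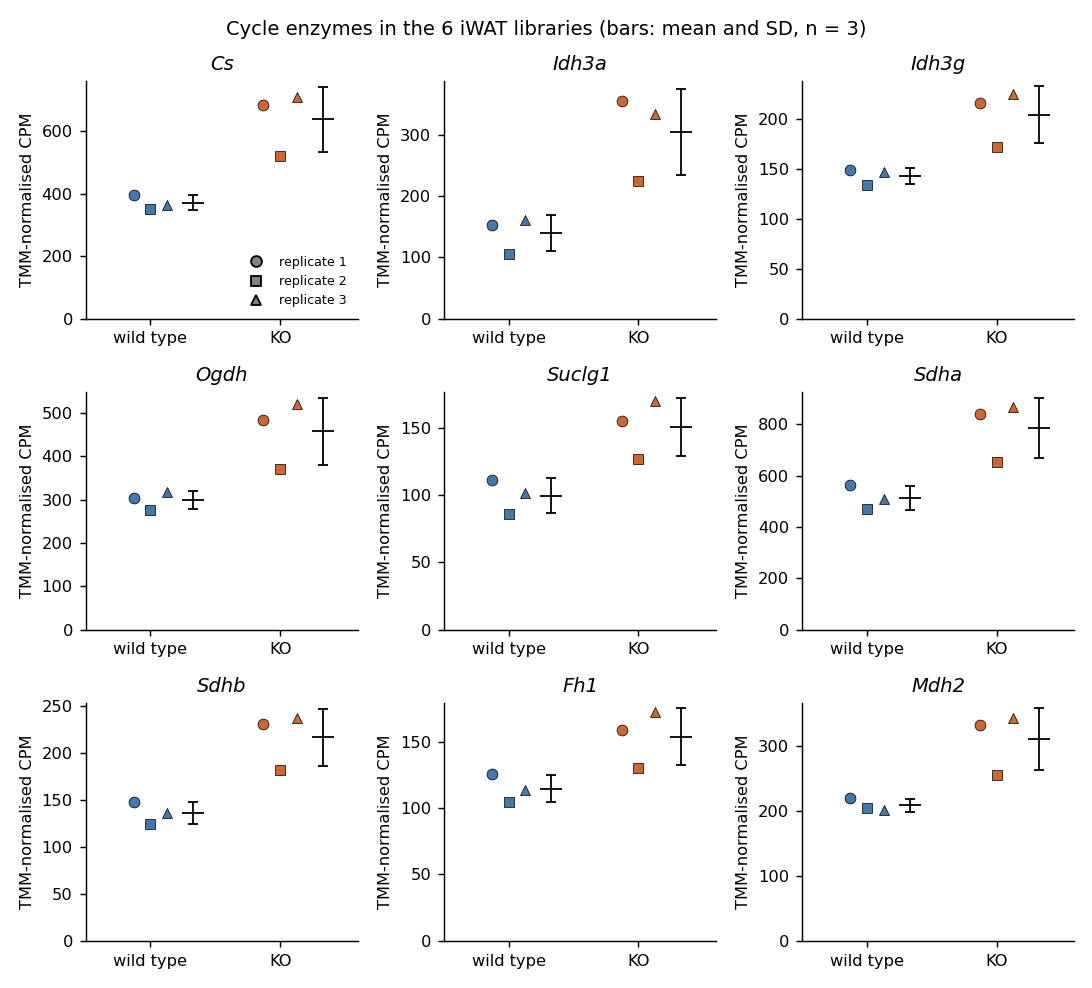
Level of each of the 9 cycle enzymes in TMM-normalised CPM (vertical axes, from 0) in the wild-type and KO iWAT libraries. Each point is 1 library, its shape gives the replicate number, and bars give the mean and SD of 3 libraries. All KO points lie above all wild-type points in each panel on this scale (not when scaled to adipocyte markers), and KO replicate 2 (square) is the lowest KO point throughout.

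Citrate synthase joins acetyl-CoA to oxaloacetate and opens the cycle. Cs (ENSMUSG00000005683) had 398, 350.4 and 365 CPM in wild type and 683, 520.4 and 711 CPM in KO, in the order of replicates 1, 2 and 3. The KO libraries were all higher, the lowest of them 1.31 times the highest wild-type one. The means were 371 ± 24.2 and 638 ± 103 CPM (SD, n = 3 each), and the log2 fold change was 0.78 (SE 0.171, edgeR adjusted p = 0.0630). Cs shares sequence with Csl (91.9% identity over 1522 bases, not analysed here) and with the pseudogene Gm48254 (92.1% over 469 bases). The pseudogene held 1 count in KO replicate 1 and none in the other libraries. No such copy was found for the other 8 enzymes.

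The NAD-dependent isocitrate dehydrogenase carries out the first oxidative decarboxylation of the cycle. Idh3a encodes its catalytic alpha subunit and Idh3g its gamma subunit. Idh3a (ENSMUSG00000032279) had 153, 106 and 161 CPM in wild type and 354, 224 and 334 CPM in KO. Its groups were the farthest apart of the 9, with the lowest KO library at 1.39 times the highest wild-type one. It also varied most within groups, with a coefficient of variation of 21.4% in wild type and 23.1% in KO. The means were 139.9 ± 29.9 and 304 ± 70.2 CPM (SD, n = 3 each), and the log2 fold change was 1.12 (SE 0.232, edgeR adjusted p = 0.0625). Idh3g (ENSMUSG00000002010) had 149, 134 and 148 CPM in wild type and 217, 172 and 226 CPM in KO. Its groups did not overlap either, but its difference was smaller, a log2 fold change of 0.51 (SE 0.146, edgeR adjusted p = 0.0991).

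Ogdh and Suclg1 act on the next pair of reactions. The product of Ogdh starts the conversion of 2-oxoglutarate to succinyl-CoA, and Suclg1 encodes the subunit common to both forms of the ligase that turns succinyl-CoA into succinate. Ogdh (ENSMUSG00000020456) had 305, 277 and 317 CPM in wild type and 482, 371 and 519 CPM in KO, a log2 fold change of 0.61 (SE 0.170, edgeR adjusted p = 0.0952). Suclg1 (ENSMUSG00000052738) had 111, 85.8 and 101 CPM in wild type and 155, 127 and 169.5 CPM in KO, a log2 fold change of 0.60 (SE 0.159, edgeR adjusted p = 0.0877). For both genes KO replicate 2 stood closest to wild type, at 1.17 and 1.14 times the highest wild-type library.

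Sdha encodes the flavoprotein of succinate dehydrogenase and Sdhb its iron-sulfur subunit. Sdha (ENSMUSG00000021577) had 563, 471 and 507 CPM in wild type and 838, 652 and 867 CPM in KO, a log2 fold change of 0.61 (SE 0.175, edgeR adjusted p = 0.0991). Sdhb (ENSMUSG00000009863) had 148, 124 and 136 CPM in wild type and 231, 182 and 237 CPM in KO, a log2 fold change of 0.67 (SE 0.152, edgeR adjusted p = 0.0665). In both genes wild-type replicate 2 and KO replicate 2 were the lowest libraries of their groups, and the groups did not overlap.

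Fumarase hydrates fumarate to malate, and Mdh2 oxidises malate back to oxaloacetate. Fh1 (ENSMUSG00000026526) had 125, 105 and 114 CPM in wild type and 158, 130.2 and 172 CPM in KO. Its groups came closest of the 9, with KO replicate 2 only 1.04 times wild-type replicate 1, and its log2 fold change was 0.42 (SE 0.148, edgeR adjusted p = 0.149). Mdh2 (ENSMUSG00000019179) had 219, 205 and 201 CPM in wild type and 331, 256 and 343 CPM in KO, a log2 fold change of 0.57 (SE 0.156, edgeR adjusted p = 0.0906). Mdh2 had the smallest spread in wild type, with a coefficient of variation of 4.66%.

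Counts of the 9 genes ranged from 1839 (Suclg1, wild-type replicate 2) to 15609 (Sdha, KO replicate 3). KO replicate 2 was the lowest KO library for each of the 9. Without it, all 9 enzymes passed edgeR's test, with adjusted p from 0.00368 to 0.0145 and log2 fold changes from 0.59 to 1.36. In that fit 14.5% of all genes were called higher, and the count of called genes in both directions went from 171 to 4221. Without any other single library 0 of the 9 passed.

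The 9 transcripts varied together from library to library. Pearson's r of their log2 CPM over the 6 libraries ranged from 0.945 (Idh3a and Mdh2) to 0.998 (Sdha and Sdhb) in the 36 pairs, with a median of 0.981. After each group's mean was removed, the range was 0.728 to 0.998 with a median of 0.932, and Idh3a with Mdh2 and Sdha with Sdhb were again the ends. These coefficients describe 6 libraries that share depth and tissue makeup.

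Sequence before the transcription starts was looked at because the 9 transcripts varied together. RefSeq promoter windows (GRCm38.p6, 250 bases before to 50 after each annotated start) were found for 8 of the 9 genes, in 13 windows of which 6 belong to Ogdh and partly overlap. The other gene was Idh3a. The 250 bases upstream of the start are shown for Sdha and Sdhb, the pair with the highest correlation, and for Idh3g, which holds a match that no other of the 8 has. They are written 5′ to 3′ on the gene's own strand, at chr13:74350241-74350490 (minus strand), chr4:140961021-140961270 (plus strand) and chrX:73786898-73787147 (minus strand), and capitals mark every searched motif on either strand.
Sdha: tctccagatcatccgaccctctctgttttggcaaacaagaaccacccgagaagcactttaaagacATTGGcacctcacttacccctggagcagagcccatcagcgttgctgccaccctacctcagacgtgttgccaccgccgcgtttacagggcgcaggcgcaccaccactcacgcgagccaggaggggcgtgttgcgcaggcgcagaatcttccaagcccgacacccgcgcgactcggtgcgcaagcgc
Sdhb: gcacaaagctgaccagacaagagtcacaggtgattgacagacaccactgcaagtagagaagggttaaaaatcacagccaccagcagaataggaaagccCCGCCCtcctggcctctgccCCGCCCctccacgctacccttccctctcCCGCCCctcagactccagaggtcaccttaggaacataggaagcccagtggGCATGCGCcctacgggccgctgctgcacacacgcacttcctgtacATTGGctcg
Idh3g: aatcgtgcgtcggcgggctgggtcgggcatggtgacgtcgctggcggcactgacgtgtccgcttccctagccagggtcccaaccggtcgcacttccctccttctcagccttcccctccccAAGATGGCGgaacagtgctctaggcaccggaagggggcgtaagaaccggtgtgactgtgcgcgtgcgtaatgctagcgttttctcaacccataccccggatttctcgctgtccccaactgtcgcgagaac

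The Sdhb stretch holds the NRF1 core GCATGCGC, beginning 54 bases before the start. It also holds the CCAAT box in reverse (ATTGG) and the GC box GGGCGG in reverse (CCGCCC, 3 copies). The Sdha stretch holds 1 reversed CCAAT box and none of the others. The Idh3g stretch holds the YY1 motif AAGATGGCG, beginning 130 bases before the start. Over whole windows and both strands, the NRF1 core was in windows of Ogdh and Sdhb among the 8 genes and in 2.71% of all 32851 windows. For the Ogdh windows with this core, the bases after the RefSeq start were not found near the start of any GENCODE M21 transcript of Ogdh. The same held for the Cs window and its gene. The YY1 motif was in 1 of the 8 genes and 1.40% of windows. The estrogen-related receptor motif TCAAGGTCA was in 0 of the 8 genes and 0.423% of windows, and AAGGTCA, the shorter string within it, was in Ogdh and 4.72% of windows. The ETS motif CCGGAAGT was in 0 of the 8 genes and 3.89% of windows. CCAAT was in 5 of the 8 genes (Cs, Ogdh, Sdha, Sdhb and Fh1) and 37.4% of windows, and GGGCGG in 5 of the 8 (Cs, Ogdh, Sdhb, Fh1 and Mdh2) and 35.7% of windows. Counted per gene symbol with a match in any of its windows (27025 symbols), the shares were 3.05% for the NRF1 core and 1.64% for YY1. They were 0.466% for TCAAGGTCA, 5.38% for AAGGTCA, 4.31% for ETS, 41.1% for CCAAT and 38.2% for GGGCGG. Ogdh has more windows than the others and so more chances of a match. A match is a string of letters and not a measured binding site.

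Compared per kilobase of the longest coding transcript, the wild-type level was highest for Sdha at 177 ± 15.9 CPM per kb (SD, n = 3). Mdh2 followed at 143 ± 6.67, Cs at 127 ± 8.26, Sdhb at 119 ± 10.4 and Idh3g at 108 ± 6.03 CPM per kb. Ogdh (72.6 ± 4.98), Suclg1 (65.5 ± 8.45), Idh3a (54.2 ± 11.6) and Fh1 (43.5 ± 3.96 CPM per kb) were the lowest. The wild-type ranges of neighbours in this order were separate between Sdha and Mdh2, between Mdh2 and Cs, and between Idh3g and Ogdh. The other neighbours overlapped. In KO, Cs was second and Mdh2 the third, and Idh3a moved from place 8 to place 6. With merged exon length in place of transcript length, an option added after seeing the data, Sdha stayed first, but Cs came second, Sdhb the third, Mdh2 in place 4 and Suclg1 last.

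A further 7 subunits of the cycle also had higher mean values in KO. Scaled to adipocyte markers, all 7 had negative log2 fold changes, as did most genes, of which 6.53% were positive. The median in that scaling was -0.13 over the 7 and -0.78 over all genes. The 7 are Idh3b, the Ogdh partners Dlst and Dld, Sucla2 and Suclg2 (the ATP- and GTP-linked beta subunits of succinyl-CoA ligase), and Sdhc and Sdhd (the membrane anchors of succinate dehydrogenase). None of the 7 passed edgeR's test at 0.05, 3 were higher at an adjusted p of 0.10, and 5 passed in DESeq2. Of all genes, 5.52% were higher at 0.10 and 7.34% were called higher in DESeq2. In 6 of the 7 every KO library was above every wild-type one, against 15.2% of all genes. The median log2 fold change of the 7 with TMM scaling was 0.64. Dld, the E3 subunit that several such complexes share, had the largest difference of the 7, with 159, 117 and 176 CPM in wild type and 320.1, 178 and 262 CPM in KO (log2 fold change 0.75, SE 0.245, edgeR adjusted p = 0.13). Sucla2 was the 1 that overlapped, since KO replicate 2 at 138 CPM was below wild-type replicate 3 at 153 CPM. Its log2 fold change was 0.64 (edgeR adjusted p = 0.181). All 4 subunits of succinate dehydrogenase had log2 fold changes between 0.61 and 0.67. Its 4 assembly factors had lower log2 fold changes, with a median of 0.27, and 0 passed in edgeR or DESeq2. In 3 of the 4 every KO library was above every wild-type one, against 15.2% of all genes. Sdhaf2, which helps attach the flavin to Sdha, had 52.4 ± 3.93 CPM in wild type and 52.4 ± 2.55 CPM in KO (SD, n = 3 each).

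Isozymes outside the NAD-linked cycle were compared with it. Of 6, the cytosolic Aco1, Idh1 and Mdh1, the mitochondrial NADP-linked Idh2, and Dhtkd1, a relative of Ogdh that acts in lysine breakdown, were tested. Ogdhl, another relative of Ogdh, was near the detection limit at 0.160 to 0.420 CPM and was not tested. All 5 were higher in every KO library than in any wild-type one, against 15.2% of all genes. Scaled to adipocyte markers, 1 of the 5 was positive, against 6.53% of all genes. With TMM scaling, 0 of the 5 passed edgeR's test at 0.05, 1 (Mdh1) passed at 0.10, and 3 passed in DESeq2. Of all genes, 5.52% were higher at 0.10 and 7.34% were called higher in DESeq2. Mdh1 had 299, 298 and 286 CPM in wild type and 541, 411 and 559 CPM in KO (log2 fold change 0.78, SE 0.164, edgeR adjusted p = 0.0625). Idh2 had 89.3, 80.5 and 86.2 CPM in wild type and 100.3, 91.1 and 127 CPM in KO (log2 fold change 0.31, SE 0.149, edgeR adjusted p = 0.254).

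A ratio of the counts of 2 genes in 1 library does not depend on how libraries are scaled to each other, and 5 such ratios were compared. With 3 libraries against 3, the exact permutation test cannot give a p below 0.1, so no ratio could pass 0.05. The ratio of Idh3a to Idh3g was 1.02, 0.786 and 1.09 in wild type and 1.63, 1.30 and 1.48 in KO, higher in all KO libraries (log2 difference 0.61, exact permutation p = 0.1, two-sided, 0.125 adjusted over the 5 ratios). Within the isocitrate dehydrogenase complex, the catalytic subunit transcript was thus more abundant relative to the gamma subunit transcript in each KO library than in any wild-type library. The ratio of Idh2 to Idh3a was 0.586, 0.761 and 0.534 in wild type and 0.283, 0.407 and 0.380 in KO, lower in all KO libraries (log2 difference -0.81, exact permutation p = 0.1). The ratio of Mdh2 to Mdh1 was 0.733, 0.686 and 0.704 in wild type and 0.612, 0.622 and 0.613 in KO, with separate groups (log2 difference -0.20, exact permutation p = 0.1). The mitochondrial malate dehydrogenase transcript was thus lower relative to the cytosolic one in each KO library.

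The ratio of Sdha to Sdhb barely moved. It was 3.80, 3.78 and 3.73 in wild type and 3.63, 3.58 and 3.66 in KO, so the log2 difference was -0.06 with separate groups (exact permutation p = 0.1). The ratio of Suclg2 to Sucla2 was 0.674, 0.871 and 0.622 in wild type and 0.542, 0.715 and 0.570 in KO. Its groups overlapped, and the highest value of each group was in replicate 2 (log2 difference -0.24, exact permutation p = 0.3).

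**Figure D2:**
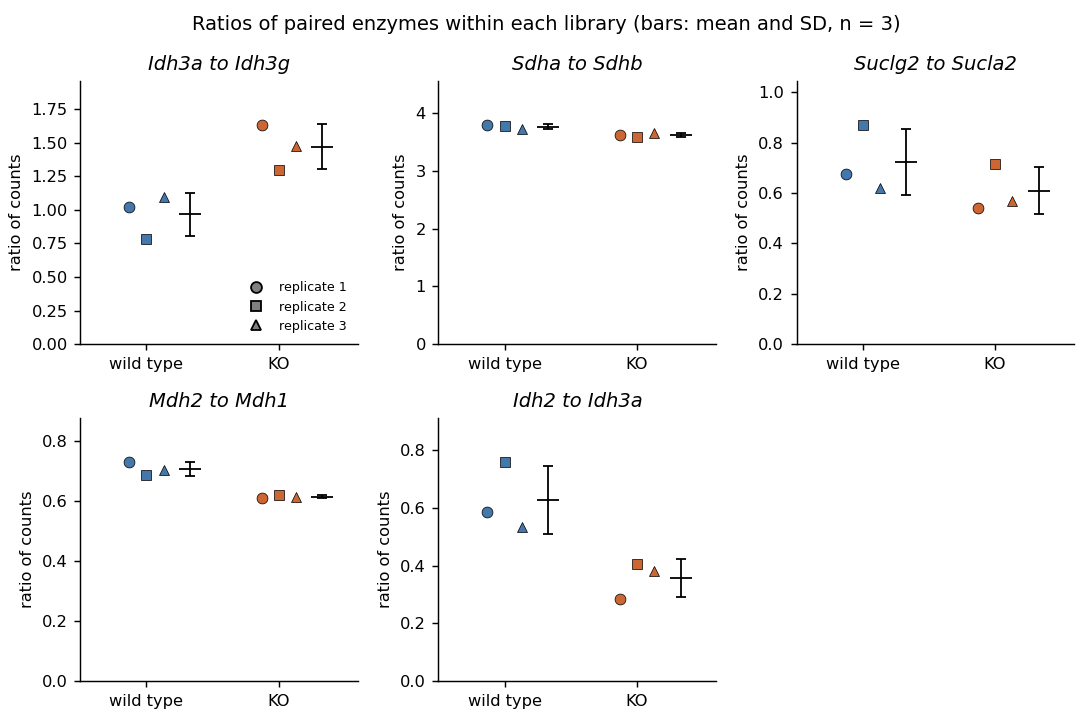
Ratio of the counts of 2 genes within each iWAT library (vertical axes, from 0). Each point is 1 library, and bars give the mean and SD of 3 libraries. The groups are separate in 4 of 5 panels, and overlap for Suclg2 to Sucla2.

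The next list holds enzymes and carriers of entry into and exit from the cycle, and Lias, Lipt1 and Lipt2, which make or attach the lipoic acid that its dehydrogenase complexes need. Of 21 tested, 5 rose in edgeR's test, 0 fell and 16 did not pass, while 0.865% of all genes were called higher. The median log2 fold change of the 21 was 0.51, with a range from -0.54 to 1.85. In 12 of the 21, among them the 3 lipoic acid genes, every KO library was above every wild-type one, against 15.2% of all genes. In 1 of the 21 every KO library was below, against 13.1% of all genes. Mpc1 and Mpc2, the subunits of the mitochondrial pyruvate carrier, rose with log2 fold changes of 1.25 (SE 0.184, edgeR adjusted p = 0.0400) and 1.10 (SE 0.164, edgeR adjusted p = 0.0409). Mpc1 had 186, 144 and 166 CPM in wild type and 462, 318 and 402 CPM in KO. Slc25a1, the mitochondrial citrate carrier, had means of 286 ± 58.7 CPM in wild type and 748 ± 126 CPM in KO (SD, n = 3 each), and rose by a log2 fold change of 1.39 (SE 0.215, edgeR adjusted p = 0.0435). Slc25a10, the dicarboxylate carrier, went from 97.6 ± 8.64 CPM up to 219 ± 34.7 CPM (SD, n = 3; log2 fold change 1.16, SE 0.156, edgeR adjusted p = 0.0326). Me1, the cytosolic malic enzyme that makes NADPH, went from 458 ± 135 CPM up to 1650 ± 503 CPM (SD, n = 3; log2 fold change 1.85, SE 0.308, edgeR adjusted p = 0.0466). Each of the 5 calls was lost when wild-type replicate 1, wild-type replicate 2, KO replicate 1 or KO replicate 3 was left out, with adjusted p between 0.0857 and 0.212, and those of Mpc1, Mpc2 and Me1 also without wild-type replicate 3 (0.0501 to 0.0504). Scaled to adipocyte markers, the 5 stayed positive and 0 passed, with adjusted p from 0.0713 to 0.261.

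Pcx, the pyruvate carboxylase that refills the cycle with oxaloacetate, had 687, 641 and 549.8 CPM in wild type and 1512, 1041 and 1502 CPM in KO (log2 fold change 1.11, SE 0.207, edgeR adjusted p = 0.0547). Acly, the cytosolic enzyme that splits exported citrate, had 604, 733 and 286 CPM in wild type and 1855, 1287 and 1416 CPM in KO (log2 fold change 1.49, SE 0.345, edgeR adjusted p = 0.0696). Both had separate groups without passing the test. Gpt2, an alanine aminotransferase that links pyruvate and 2-oxoglutarate to alanine and glutamate, had 104, 107 and 136 CPM in wild type and 243, 145 and 292 CPM in KO, also with separate groups (log2 fold change 0.97, SE 0.256, edgeR adjusted p = 0.0870). Glud1, the glutamate dehydrogenase, had 295 ± 11.2 CPM in wild type and 299 ± 28.6 CPM in KO (SD, n = 3 each). Got2, the mitochondrial aspartate aminotransferase, had a log2 fold change of -0.16 with overlap. Got1, its cytosolic form, was the 1 gene with every KO library below every wild-type one. Got1 had 20.9, 21.1 and 22.4 CPM in wild type and 13.5, 15.6 and 15.1 CPM in KO (log2 fold change -0.54, SE 0.123, edgeR adjusted p = 0.0665).

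**Figure D3:**
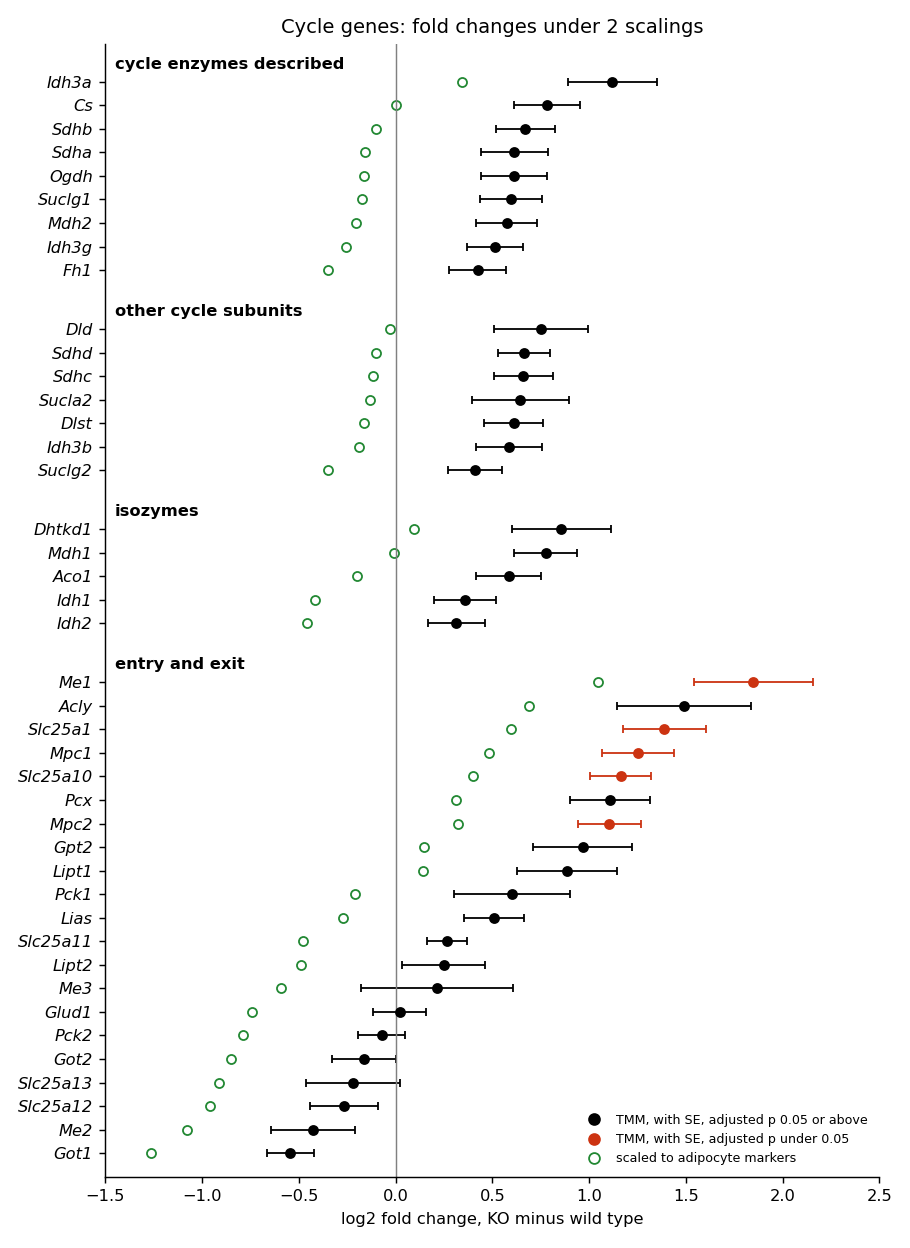
Log2 fold change (KO minus wild type, horizontal axis) of the 9 cycle enzymes, 7 other cycle subunits, 5 isozymes and 21 entry and exit genes (Lias, Lipt1 and Lipt2 included). Filled points with SE bars use TMM scaling, red where the adjusted p is under 0.05 (5 entry and exit genes), and open points use scaling to the adipocyte markers, which moves every gene to the left.

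Of 10 known regulators of mitochondrial genes, 0 passed edgeR's test at 0.05 and 1 passed in DESeq2, where 7.34% of all genes were called higher. The median log2 fold change of the 10 was 0.09. Esrra, the estrogen-related receptor alpha, had 37.4, 35.4 and 35.5 CPM in wild type and 45.3, 48.1 and 50.8 CPM in KO, with separate groups (log2 fold change 0.41, SE 0.104, edgeR adjusted p = 0.0801). Unlike the 9 enzymes, its KO replicate 2 was not the lowest KO library. Ppargc1a, a coactivator of mitochondrial genes, had 7.71, 3.08 and 8.31 CPM in wild type and 17.8, 5.42 and 12.7 CPM in KO, with overlap (log2 fold change 0.91, SE 0.492, edgeR adjusted p = 0.307). Nrf1, Gabpa, Yy1 and Tfam had log2 fold changes of -0.20, -0.13, -0.14 and -0.11, each with overlapping groups.

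The respiratory chain gave a close match in size. Of 22 nuclear genes of complexes I, III, IV, V and cytochrome c, 0 passed edgeR's test at 0.05, 15 were higher at 0.10, 20 passed in DESeq2 and 21 had separate groups. Of all genes, 5.52% were higher at 0.10, 7.34% were called higher in DESeq2, and 15.2% had every KO library above every wild-type one. The median log2 fold change of the 22 was 0.61, and -0.16 when scaled to adipocyte markers. For every 100 CPM summed over these genes, the 9 enzymes held 41.6, 40.1 and 42.5 CPM in wild type and 44.4, 42.9 and 44.0 CPM in KO.

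Marker levels of several cell types also differed between the groups. For each list the mean log2(CPM + 0.5) was taken relative to the wild-type mean. The level of the 9 enzymes was 0.11, -0.14 and 0.03 in wild type and 0.75, 0.37 and 0.81 in KO. In the same order of replicates, the level of the 18 adipocyte markers was -0.00, -0.15 and 0.16 in wild type and 0.88, 0.29 and 1.14 in KO. The 3 KO libraries thus had the same order in both lists, with replicate 2 lowest and replicate 3 highest. The enzyme level minus the adipocyte level was 0.11, 0.01 and -0.12 in wild type and -0.13, 0.08 and -0.33 in KO, which overlapped. Of the 18 adipocyte markers 1 passed edgeR's test (Slc2a4, the insulin-responsive glucose transporter, log2 fold change 1.49, adjusted p = 0.0435), while 0.865% of all genes were called higher. In 12 of the 18 every KO library was above every wild-type one, against 15.2% of all genes. In DESeq2 15 of the 18 passed, while 7.34% of all genes were called higher. The median log2 fold change of the 18 was 0.80.

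The 12 macrophage markers had levels of -0.00, 0.35 and -0.35 in wild type and -0.86, -0.95 and -0.68 in KO. Lyz2 was the most abundant, and 0 of the 12 passed edgeR's test. Their median log2 fold change was -0.69. In 8 of the 12 every KO library was below every wild-type one, against 13.1% of all genes. In DESeq2 5 of the 12 passed, counted in either direction, as did 1823 of all 16656 genes. The skeletal muscle level was 6.71, 4.22 and 7.20 in KO, relative to wild type, where it ranged from -0.04 to 0.03. Of 13 tested members 12 rose in edgeR's test, against 0.865% of all genes. Mitochondrially encoded genes took 4.87%, 3.54% and 6.83% of wild-type counts and 9.27%, 6.37% and 8.15% of KO counts. Removing the muscle markers and the mitochondrially encoded genes before scaling left the median of the 9 enzymes at 0.61, with 0 passing. That step changes the scaling only and leaves any enzyme transcript from muscle in place. KO replicate 2, with 784 CPM of muscle markers against 4632 and 4330, was the lowest KO library for the 9 enzymes too. The 8 lymphocyte markers had levels of -0.04, 0.03 and 0.01 in wild type and -0.80, 0.28 and -1.60 in KO, so that the order of the KO libraries was the reverse of that of the enzymes. The 9 progenitor markers had levels of -0.01, 0.08 and -0.07 in wild type and -0.28, -0.67 and 0.08 in KO. Of these lists of lymphocyte and progenitor markers, 0 members passed edgeR's test. The part of RNA from these cell types in the enzyme values was not tested.

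When libraries were scaled to the geometric mean of the adipocyte markers, the groups overlapped for each of the 9 enzymes. In this scaling 0 of 9 had every KO library above every wild-type one, against 1.78% of all genes, and 0 had every KO library below. The median log2 fold change was -0.17 over the 9 enzymes and -0.78 over all genes, a shift of all genes by -0.73. Idh3a had a log2 fold change of 0.34 and Cs one of 0.00, and the other 7 lay between -0.35 and -0.10, with adjusted p for the 9 from 0.233 to 0.991. Sdha, for example, had 765, 708 and 617 CPM on this scale in wild type and 615, 721 and 534 CPM in KO. This scaling sets the mean of the markers equal between libraries, so it measures the enzymes relative to these 18 genes and not per adipocyte. With library totals alone, which moved the median of all genes by -0.13, all 9 had separate groups and their median was 0.47.

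**Figure D4:**
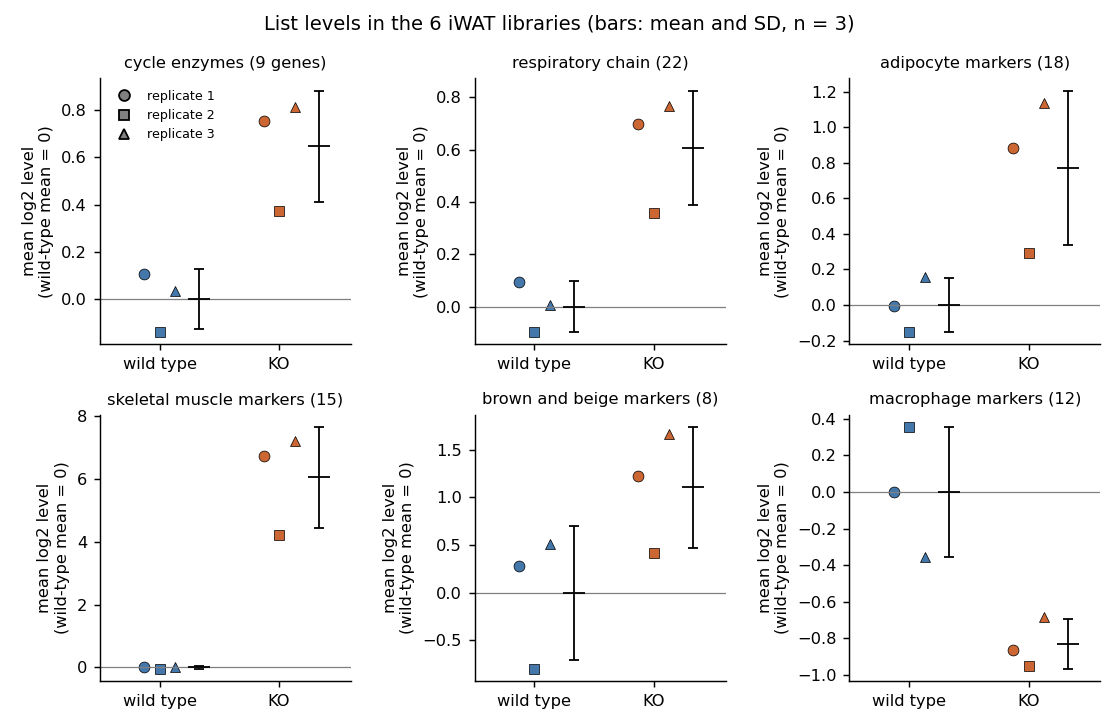
Mean log2(CPM + 0.5) of 6 gene lists in each iWAT library, relative to the wild-type mean (grey line at 0; the vertical axes differ between panels). Each point is 1 library, and bars give the mean and SD of 3 libraries. KO replicate 2 (square) is the lowest KO point in each of the 6 panels, the macrophage markers included.

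Across the 13330 tested genes with a symbol and a mean of at least 2 CPM, the 5 outside the 9 enzymes that followed their mean pattern most closely were Dio2, D830050J10Rik, Rnf25, Oxnad1 and Dgat1, with Pearson's r of 0.998 to 0.999 over 6 libraries. Dio2, which makes active thyroid hormone within cells and is used as a brown fat marker, had 2.34, 1.03 and 1.62 CPM in wild type and 13.8, 5.17 and 19.1 CPM in KO, with a log2 fold change of 2.93 (edgeR adjusted p = 0.0514). Dgat1, which adds the last fatty acid to triglyceride, had a log2 fold change of 1.06 (edgeR adjusted p = 0.0576), and Rnf25 had one of 0.13 (edgeR adjusted p = 0.492). A high r therefore went with differences of very unequal size. Among the enzymes themselves, Sdha ranked 4, Sdhb 8 and Idh3g 9 in this order, and Idh3a came last of the 9 at rank 244. Each enzyme is part of the mean pattern it was compared with, which raises its own r. The ranks of the 9 therefore cannot be set against those of outside genes. The 8 brown and beige markers, of which Dio2 is 1, had a median log2 fold change of 1.15, with 0 past edgeR's test. In 4 of the 8 every KO library was above every wild-type one, against 15.2% of all genes.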

How the data were processed

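Poly(A) RNA of 6 iWAT libraries was sequenced after a stranded mRNA preparation, per the labels' protocols. The authors deposited 1 table of estimated counts per gene, not scaled between libraries; in each library 9.53% to 11.1% of values were not whole, so they were treated as estimated (expected) counts and rounded. For this table, the quantifier and build were not given in the sources used here. For the series, the submitters' processing notes name fastp, featureCounts, GRCm38 and GRCm39. How reads shared by near-identical genes were assigned is not given either. GENCODE M21 names matched 26372 of 33200 identifiers (79.4%). Near copies were sought with BLAST 2.17.0 (at least 90% identity over 150 bases). No pair of libraries was identical.

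Genes were tested in edgeR 4.0.16 (R 4.3.3) by quasi-likelihood (F-test; TMM, filterByExpr, robust, two-sided, no covariate) with Benjamini-Hochberg adjustment over all 16656 tested genes at 0.05. DESeq2 1.42.0, limma-voom (limma 3.58.1), other scalings and filters, a block on the replicate number and the omission of each library were alternatives. Tests were checked on simulated data, where the share of false calls exceeded the nominal rate in edgeR, limma-voom and DESeq2 and was largest in DESeq2. Ratios used exact permutation tests (scipy 1.17.1). Promoter windows came from a RefSeq table. P-values of the gene tests set the difference between genotypes against the spread among these libraries within a genotype. Those of the ratios come from reassigning these 6 libraries to groups. Named genes were the 9 enzymes, Nrep, members of the cycle-related lists, at most the 3 most abundant members of each marker list and those at 0, and the 5 genes nearest in pattern. Slc2a4 was named after its value was seen. Some planned genes and a ratio are not reported here and were left out of the list counts. The 9 members and all lists were chosen with earlier results of these data known.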

Additional observations from a re-analysis of the deposited data

How the results depend on the processing

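The count of genes called over the whole table depended on the processing, and so did the count of cycle enzymes among them. Against 171 genes and 0 of 9 enzymes, DESeq2 gave 1823 genes and 8 enzymes, no filter on low counts 1370 and 6, and an adjusted p of 0.10 gave 1378 and 8. Limma-voom gave 16 genes, and scaling to the adipocyte markers 496 (84 higher, 412 lower against 144 and 27), both with 0 enzymes. Leaving out 1 library gave 1 to 4221 genes and 0 to 9 enzymes; 9 enzymes and 4221 genes came without KO replicate 2, and 334, 1, 1, 1 and 3 genes without wild-type replicates 3, 1 and 2 and KO replicates 1 and 3. The fit with the replicate number as a replicate block gave 1225 genes and 4 enzymes (Cs, Idh3a, Suclg1 and Sdhb). Deviations from the group means of same-numbered libraries correlated at -0.01, 0.20 and 0.11 for replicates 1, 2 and 3. KO replicates 2 and 3 correlated best with the wild-type library of the same number, and KO replicate 1 with wild-type replicate 3 (0.14). These values cannot tell whether same-numbered libraries share more than the number. All 9 enzymes kept a positive log2 fold change in every alternative except the scaling to adipocyte markers, where 7 reversed: Idh3g to -0.26, Ogdh to -0.17, Suclg1 to -0.17, Sdha to -0.16, Sdhb to -0.10, Fh1 to -0.35 and Mdh2 to -0.21. That scaling moved the median of all genes by -0.73 and left 6.53% of them positive. The leave-one-out fits hold fewer samples; for the other settings, and for why KO replicate 2 moves the count most, the cause was not tested. The 5 ratios kept their direction without each library in turn, but the log2 difference of Suclg2 to Sucla2 (-0.24) went to -0.10 without wild-type replicate 2 and to -0.36 without KO replicate 2. Whether depth or the spread between libraries limits the precision was not tested.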
